A study of Mus musculus with 15 samples.

Results

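Voltage-gated calcium channels let calcium into a cell when its membrane depolarizes, and in neurons this entry sets transmitter release, firing pattern, and activity-dependent transcription. Each channel is built around a pore-forming alpha-1 subunit, whose gene decides whether the current is of the L-type, the P/Q-, N-, or R-type, or the low-voltage T-type. The extracellular alpha-2-delta subunits and the cytoplasmic beta subunits accompany most of these pores (T-type pores need neither) and raise the number of channels that reach the cell surface. The 10 genes described here were taken by name, as 3 alpha-2-delta genes (*Cacna2d1*, *Cacna2d2*, and *Cacna2d3*) and 7 alpha-1 genes (*Cacna1a*, *Cacna1b*, *Cacna1c*, *Cacna1d*, *Cacna1e*, *Cacna1g*, and *Cacna1h*), and matched by Ensembl identifier to the deposited table of 19475 genes. All 10 were in the table, and all 10 passed the filter on low genes (a mean normalized read count of 5 or more), as did 16507 genes of the table.

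The RNA-Seq data come from 15 mouse embryos at E16.5, with 5 wild-type (WT), 5 heterozygous (*Tbr1+/K228E*), and 5 homozygous (*Tbr1K228E/K228E*) embryos, each group made up of 3 females and 2 males, on a C57BL/6J background. The knock-in replaces lysine by glutamate in TBR1, a T-box transcription factor of early-born cortical projection neurons, and is carried in the germline, so that every cell of a mutant embryo has it and no cell type was singled out. The series describes the tissue as whole brain and the study describes it as forebrain. The deposited values are normalized read counts, which sum to between 30.5 and 31.8 M (megacounts) per embryo after scaling, and the number of reads behind each embryo is not given by such sums.

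*Tbr1* itself was set beside the genotype labels, although a knock-in leaves its transcript in place. The study had already reported its rise in the homozygotes from these embryos, so it is no independent check of the labels. *Tbr1* ranged from 2097 to 4871 in WT embryos, from 4738 to 8543 in heterozygous embryos, and from 7148 to 16015 in homozygous embryos. The homozygotes and WT did not overlap, and the heterozygotes overlapped both.

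The composition of the samples was read from marker genes. The 15 measured midbrain and hindbrain markers, led by *En2*, summed to between 10.2 normalized read counts in a *Tbr1+/K228E* embryo and 5165 in a WT embryo, and 13 of them, all *Hox* genes, were at 0 in at least 1 embryo. The 8 markers of the meninges, led by *Col3a1*, summed to between 488.6 and 32113. The embryos therefore differed widely in how much hindbrain and meningeal RNA they held within each genotype, and no marker of the 11 lists used passed the adjusted threshold of 0.05 in a comparison of genotypes. In bulk tissue, fewer cells of a type and less RNA per cell cannot be told apart, which bears on every value given here.

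*Cacna2d1* (ENSMUSG00000040118) encodes alpha-2-delta-1, a glycoprotein on the outer face of the membrane whose precursor is cut into disulfide-linked alpha-2 and delta parts. The gene spans 439.8 kb on chromosome 5 (GRCm38, 15934691 to 16374511, plus strand). The 250 bases just before its RefSeq start (GRCm38.p6, chr5:15934441-15934690, plus strand) are shown because *Cacna2d1* had the smallest p of the 10 genes in homozygotes against WT, with GC boxes (GGGCGG on either strand, the element read by Sp1-type factors) in capitals. Adjoining boxes run together in the last stretch.
*Cacna2d1*: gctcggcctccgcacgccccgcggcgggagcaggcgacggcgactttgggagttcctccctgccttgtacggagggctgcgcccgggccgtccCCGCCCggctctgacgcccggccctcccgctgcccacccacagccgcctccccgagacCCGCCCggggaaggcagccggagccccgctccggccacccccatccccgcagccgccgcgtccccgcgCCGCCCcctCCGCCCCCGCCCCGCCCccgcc
*Cacna1b*: tggggttcgggGGTGTGActgacgcggat
The second line is the sole match to GGTGTGA, the core of the T-box element (capitals), in the promoter windows searched, and covers chr2:24763230-24763258 on the minus strand, ahead of *Cacna1b*. The other 3 channel genes had no window and were not searched. These RefSeq promoter windows of 300 bases (250 before and 50 after a start) were at hand for 7 of the 10 genes, with 10 windows in all. The longer T-box half-site AGGTGTGA, searched on both strands, was in 0 of these 10 windows and in 1.28% of all 32851 mouse windows. The core GGTGTGA, which the longer half-site contains, was in 1 of the 10 and in 3.98% of all. GC boxes were in 6 of the 10 windows and in 35.7% of all. The *Cacna2d1* window held 7 of them, of which 6 lie in the bases printed and 1 crosses the start, with a GC content of 80.0% and 42 CpG dinucleotides, against a median of 52.7% and 7 over all windows. These letters describe the windows and say nothing of what binds there.

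The central question was whether alpha-1 and alpha-2-delta transcripts differ between genotypes, and whether 1 mutant allele gives a part of what 2 alleles give. No gene of the 10 passed the adjusted threshold over all genes. *Cacna2d1* had the smallest p of the 10 in both comparisons with the homozygotes, with a higher mean in the homozygotes than in either other genotype, and the other 9 genes had 95% intervals that crossed 0 in every comparison. Its normalized read counts were 4534, 4794, 5282, 5454, and 5707 in the WT embryos. In the *Tbr1+/K228E* embryos they were 5004, 4686, 5124, 5306, and 5043. In the *Tbr1K228E/K228E* embryos they were 5633, 6724, 6556, 6652, and 6129. Thus 4 of 5 homozygous embryos lay above the highest WT embryo, the remaining homozygote lay between the highest and the next WT embryo, and all 5 lay above every heterozygous embryo.

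The mean of the 5 embryos was 5154 with an SD of 481 in WT, 5033 with an SD of 226 in *Tbr1+/K228E*, and 6339 with an SD of 457 in *Tbr1K228E/K228E* mice. The homozygotes were 1.23-fold higher than WT, a log2 fold change of 0.30 (standard error 0.06, 95% interval 0.16 to 0.44), with an unadjusted p of 0.000279 and an adjusted p of 0.159 (limma, Benjamini-Hochberg correction over 16507 genes). A two-sided exact permutation test of *Cacna2d1* alone gave p = 0.0159, where the smallest p that 5 against 5 embryos can give is 0.00794. Against the heterozygotes the log2 fold change was 0.33 (95% interval 0.19 to 0.47), with an adjusted p of 0.101 from limma and p = 0.00794 from the exact permutation test of this gene. Adjusted over all 16507 genes, the exact permutation tests gave 1.00 against WT and 0.904 against the heterozygotes. No gene could pass that adjustment in these data, as the value of 0.904 belongs to the smallest possible p of 0.00794. The adjusted exact tests thus cannot decide on *Cacna2d1*, which is a gene that the study had already picked from these embryos. The heterozygotes themselves differed from WT by -0.03 on the log2 scale (95% interval -0.17 to 0.11, adjusted p = 0.999 from limma), and a straight line over 0, 1, and 2 mutant alleles rose by 0.15 per allele (adjusted p = 0.699, limma). The difference between the homozygotes and the heterozygotes is the test that separates the effects of 2 alleles and 1 allele, and it did not pass the threshold over all genes in this fit.

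The call on *Cacna2d1* depended on how the null distribution was set. With the spread of the null estimated from the central part of the test statistics, the kind of correction the study used, its adjusted p was 0.0159 against WT and 0.0380 against the heterozygotes (limma statistics). That correction called 42 of the 16507 genes (0.254%) in homozygotes against WT and 18 (0.109%) in homozygotes against heterozygotes. *Cacna2d1* ranked 29th and 18th by p in these comparisons. With a replicate block added to that correction, its adjusted p was 0.0256 against WT and 0.0872 against the heterozygotes (limma statistics). The call against the heterozygotes was thus lost.

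**Figure D1:**
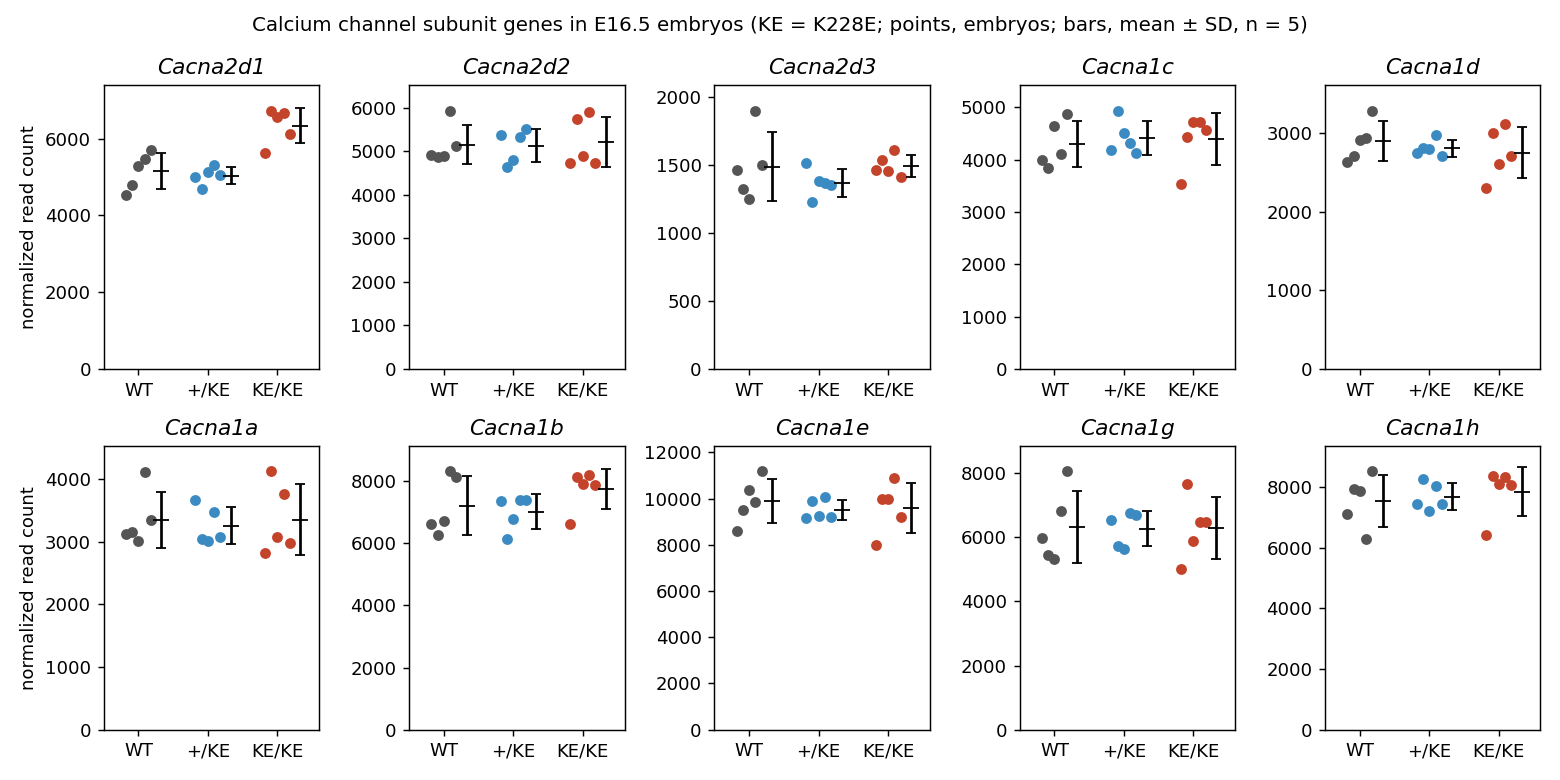
Normalized read counts (vertical axes, from 0) of the 10 channel genes in each embryo (points) by genotype, with the mean and SD of 5 embryos beside them. In *Cacna2d1* the 5 homozygous embryos (5633 to 6724) sit above the 5 heterozygous embryos (4686 to 5306), and in the other panels the genotypes overlap.

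Over the 10 genes, 0 passed the adjusted threshold in homozygotes against WT, where 21 of all tested genes did (0.127%). An unadjusted p under 0.05 was found for 1 of the 10 genes, *Cacna2d1*, and for 3.23% of all genes. In heterozygotes against WT the count was 0 of 10, with 0 of all genes past the adjusted threshold (0.0%), and an unadjusted p under 0.05 was found for 0 of the 10 genes and for 1.79% of all. In homozygotes against heterozygotes it was 0 of 10 against 13 of all genes (0.0788%), with an unadjusted p under 0.05 for 1 of 10 against 3.3%. The trend over alleles gave 0 of 10 against 12 of all genes (0.0727%). Embryos of the 2 groups did not overlap for 0 of 10 genes in homozygotes against WT (0.594% of all) and for 1 of 10, *Cacna2d1*, in homozygotes against heterozygotes (0.878% of all). The median log2 fold change of the 10 genes was 0.02 in homozygotes and -0.03 in heterozygotes relative to WT, and the median over all tested genes was 0.00 in both. Each comparison with WT uses the same WT embryos.

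The other alpha-2-delta genes had log2 fold changes close to 0 in homozygotes relative to WT. *Cacna2d2*, whose product accompanies P/Q-type channels in the cerebellum and elsewhere, lies on chromosome 9 (107399612 to 107529343, plus strand). It had normalized read counts of 4920, 4879, 4892, 5935, and 5125 in WT embryos. The *Tbr1+/K228E* embryos had 5374, 4640, 4807, 5328, and 5509, and the *Tbr1K228E/K228E* embryos had 4737, 5752, 4896, 5903, and 4738. The ranges of the 3 groups overlapped, with the heterozygotes reaching less high than the others, and the log2 fold change of the homozygotes relative to WT was 0.01 with a 95% interval of -0.15 to 0.18, which leaves out a change as large as the estimate for *Cacna2d1*. *Cacna2d3* (chromosome 14, 28904943 to 29721864, minus strand), the longest of the 10 genes with 816.9 kb, ranged from 1253 to 1901 in WT, from 1232 to 1520 in heterozygous, and from 1410 to 1612 in homozygous embryos. Its log2 fold change was 0.02 (95% interval -0.17 to 0.21) in homozygotes and -0.11 (95% interval -0.30 to 0.09) in heterozygotes relative to WT. Without the highest WT embryo the homozygote value became 0.11.

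Expressed per kb of exon, the alpha-2-delta genes can be set against each other. *Cacna2d1* made up 31.7, 33.5, 35.9, 31.3, and 36.0% of the summed alpha-2-delta level per kb in the WT embryos, and 32.1, 34.2, 35.1, 34.1, and 32.4% in the heterozygous embryos. In the homozygous embryos it made up 37.3, 37.6, 40.3, 36.6, and 39.4%, so that the homozygotes overlapped neither of the other genotypes. The mean share of *Cacna2d2* was 52.5% in WT, 53.4% in *Tbr1+/K228E*, and 48.9% in *Tbr1K228E/K228E* embryos, and that of *Cacna2d3* was 13.8% in WT and 12.9% in *Tbr1K228E/K228E* embryos. By this length *Cacna2d2* had the highest share in every embryo. With the longest transcript as length its share in the homozygotes was 41.5% (39.8 to 43.3%) and that of *Cacna2d1* 39.6% (38.1 to 41.6%), so that these overlapped, and by normalized read count *Cacna2d1* had the higher mean in the homozygotes (6339 against 5205). These shares restate the values of the 3 genes and were not tested.

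The genotypes overlapped for both L-type pores. *Cacna1c* (chromosome 6, 118587240 to 119196418), the main L-type channel of brain and heart, had means of 4291 ± 439 (SD, n = 5), 4418 ± 326 (SD, n = 5), and 4397 ± 493 (SD, n = 5) in WT, heterozygous, and homozygous mice. Its log2 fold change in homozygotes relative to WT was 0.03 (95% interval -0.15 to 0.21). *Cacna1d* (chromosome 14, 30039939 to 30491455), the L-type channel that opens at more negative voltages and drives pacemaking, had means of 2894 ± 254 (SD, n = 5), 2806 ± 106 (SD, n = 5), and 2750 ± 323 (SD, n = 5). Its log2 fold change in homozygotes was -0.08 (95% interval -0.24 to 0.08), the lowest among the 10 genes, and it became -0.12 (standard error 0.04) with the score of radial glia markers as a covariate and -0.13 without homozygous replicate 4. Neither alternative brought *Cacna1d* past the adjusted threshold.

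Among the presynaptic pores, *Cacna1b* (chromosome 2, 24603887 to 24763152), the N-type channel that supports transmitter release at young synapses, came next after *Cacna2d1* in size. It had normalized read counts of 6632, 6265, 6719, 8310, and 8148 in WT embryos. The heterozygous embryos had 7376, 6153, 6787, 7387, and 7398, and the homozygous embryos had 6633, 8134, 7911, 8185, and 7861. Although 4 of 5 homozygotes lay above every heterozygote, none lay above the highest WT embryo. The WT embryos spread from 6265 to 8310, and the lowest value was that of a heterozygote (6153). The log2 fold change was 0.11 (95% interval -0.07 to 0.29) relative to WT and 0.14 (95% interval -0.04 to 0.32) relative to the heterozygotes, with adjusted p of 1.00 and 0.996 from limma. *Cacna1a* (chromosome 8, 84388440 to 84640246), the P/Q-type channel, ranged from 3004 to 4119 in WT, from 3012 to 3668 in heterozygous, and from 2820 to 4121 in homozygous embryos, and its log2 fold change in homozygotes was 0.00 (95% interval -0.23 to 0.23). *Cacna1e* (chromosome 1, 154390731 to 154884501), the R-type channel, ranged from 8610 to 11177, from 9154 to 10088, and from 7995 to 10893 in the same order, with a log2 fold change of -0.05 (95% interval -0.21 to 0.12).

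The T-type pores, which open near the resting potential and support burst firing in thalamic neurons, also overlapped between genotypes. *Cacna1g* (chromosome 11, 94408391 to 94474198) ranged from 5319 to 8047 in WT, from 5639 to 6756 in heterozygous, and from 5004 to 7645 in homozygous embryos. Its log2 fold change in homozygotes was 0.00 with the widest 95% interval of the 10 genes, -0.25 to 0.25. *Cacna1h* (chromosome 17, 25374285 to 25433783) had means of 7556 ± 862 (SD, n = 5), 7696 ± 453 (SD, n = 5), and 7860 ± 822 (SD, n = 5), a log2 fold change of 0.06 (95% interval -0.12 to 0.24) in homozygotes.

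**Figure D2:**
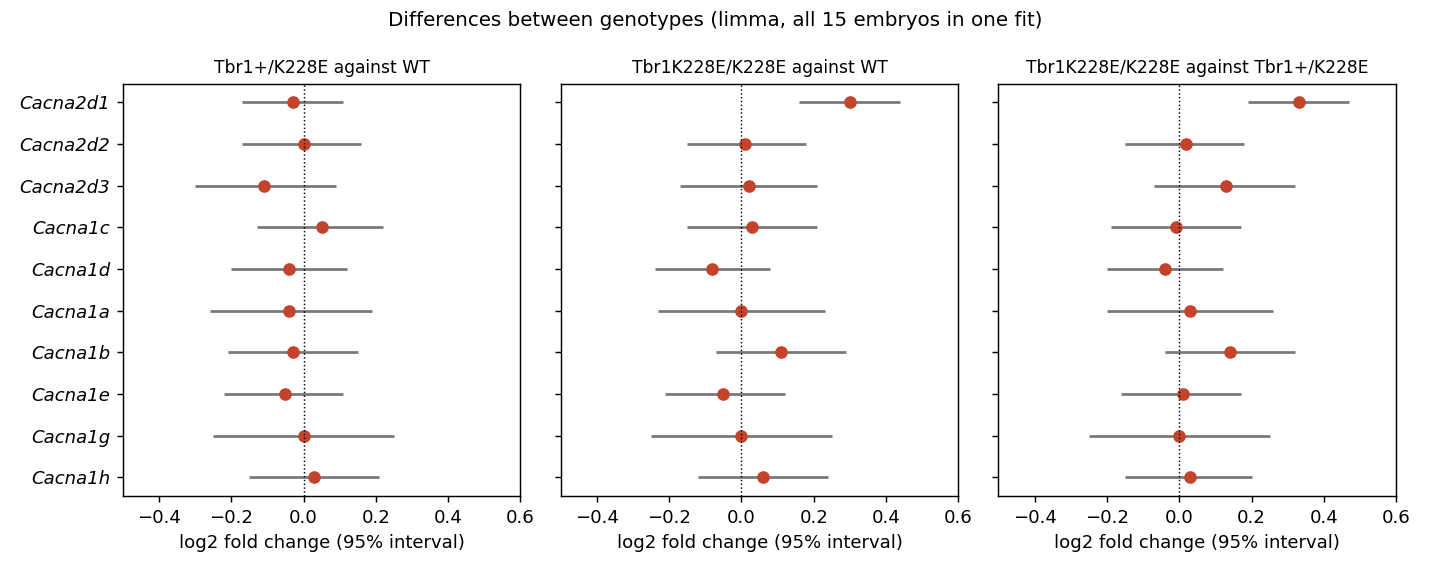
Log2 fold changes (horizontal axes) of the 10 channel genes in the 3 comparisons of genotypes, with 95% intervals from limma that are not adjusted for the number of genes. The interval of *Cacna2d1* lies above 0 in both comparisons with the homozygotes (0.16 to 0.44 and 0.19 to 0.47), and those of the other genes cross 0.

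The order of the levels was read per kb of the union of each gene's exons. In WT embryos *Cacna1h* was highest with 774 ± 88.2 (SD, n = 5) normalized read counts per kb, followed by *Cacna1b* with 726 ± 94.9, *Cacna2d2* with 648, and *Cacna1g* with 623. The ranges of neighbours in this upper group overlapped. *Cacna2d1* with 415 ± 38.8 and *Cacna1e* with 393 formed a middle pair whose ranges also overlapped, and by this length their range was separate from that of *Cacna1g*. *Cacna1a* followed with 293, overlapping *Cacna1e*, and then *Cacna1d* with 229, *Cacna1c* with 203, and *Cacna2d3* with 171, where the range of *Cacna1a* was separate from that of *Cacna1d* and the last 3 overlapped their neighbours. *Cacna2d1* reached 511 ± 36.8 (SD, n = 5) per kb in the homozygotes. Of the summed level per kb of the 7 alpha-1 genes in WT embryos, *Cacna1g* and *Cacna1h* made up 43.1%, *Cacna1a*, *Cacna1b*, and *Cacna1e* 43.6%, and *Cacna1c* and *Cacna1d* 13.3%. In homozygotes these shares were 43.1, 44.0, and 12.9%. The sum leaves out the other measured alpha-1 genes, among them the T-type pore *Cacna1i* with a WT mean of 1242 normalized read counts, so that no order between the T-type pores and the P/Q-, N-, and R-type pores can be read from these shares. Exon length is a rough divisor, since it counts exons of all annotated transcripts. With the longest transcript as length these steps fell elsewhere, as the WT embryos of *Cacna1g* (634.6 to 960.0 per kb) overlapped those of *Cacna2d1* (609.7 to 767.5) and *Cacna1e* (577.1 to 749.1), and those of *Cacna2d3* (339.1 to 514.5) overlapped both *Cacna1a* (379.1 to 519.7) and *Cacna1d* (272.4 to 340.1).

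**Figure D3:**
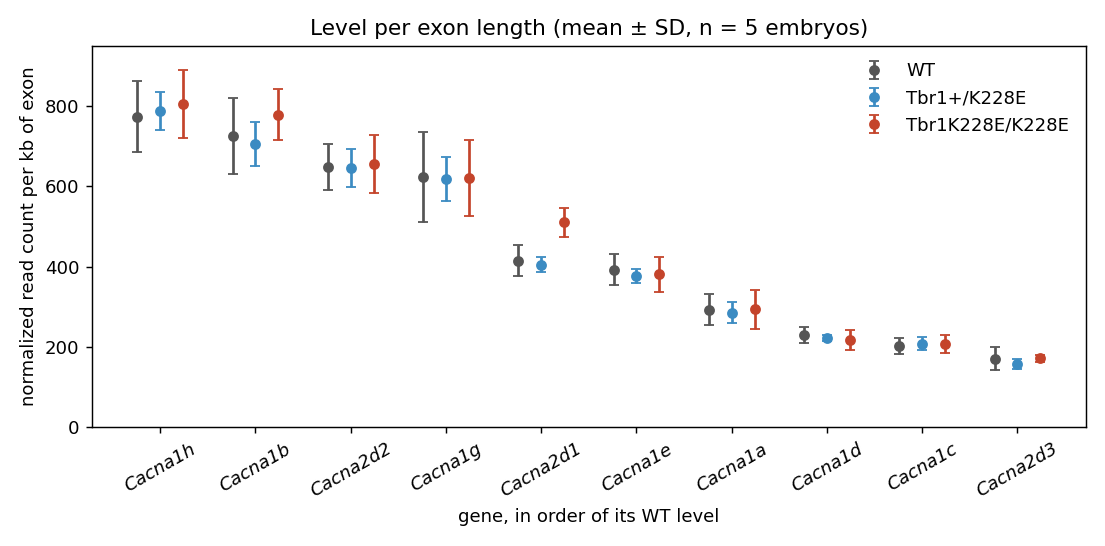
Level of the 10 channel genes per kb of exon (vertical axis, normalized read counts per kb, from 0), with genes ordered by their WT mean, as mean and SD of 5 embryos per genotype. In *Cacna2d1* the homozygous mean (511) stands above the WT mean (415), and in the other genes the bars of the 3 genotypes overlap.

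The 10 genes share features that did not enter their choice. Their median span was 345.8 kb, against 22.74 kb over all tested genes, and 8 of 10 were longer than 100 kb, against 14.3% of all. Their mean normalized read counts lay between the 72.9th percentile (*Cacna2d3*) and the 97.6th percentile (*Cacna1e*) of the table. Embryos of the same genotype varied with a standard deviation of between 0.11 (*Cacna2d1*) and 0.21 (*Cacna1g*) on the log2 scale, against a median of 0.09 over genes whose mean reached 1000. Each of the 10 genes was thus more variable than the typical gene of high abundance, and *Cacna2d1* was the least variable of them.

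The embryo-to-embryo variation was partly shared among the genes. After the genotype means were subtracted, log2 values of *Cacna2d1* correlated over the 15 embryos with those of *Cacna1b* (Pearson's r = 0.83, Spearman's rho = 0.79), *Cacna1d* (r = 0.83, rho = 0.81), and *Cacna1e* (r = 0.82, rho = 0.80). With the 2 most distant embryos left out, these r were 0.80, 0.71, and 0.62. Here and below, these are the 2 embryos farthest from the median of the first-named gene, or of the score for marker lists. They can differ between correlations, and leaving them out narrows the range of that variable. *Cacna2d2* went with *Cacna1a* (r = 0.89, rho = 0.86), and *Cacna1d* went with *Cacna1e* (r = 0.90, rho = 0.86). In contrast, *Cacna2d1* and *Cacna1h* had r = 0.38, which fell to -0.02 without the 2 most distant embryos, and *Cacna2d3* and *Cacna1h* had r = -0.47, which became -0.10. These are descriptions, as the values of an embryo share its library, its dissection, and its scaling.

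The same variation went with several of the cell type marker lists. The 10 cell-cycle genes, led by *Mki67*, summed to between 12251 and 21861 normalized read counts in WT, between 16277 and 23021 in *Tbr1+/K228E*, and between 11760 and 20184 in *Tbr1K228E/K228E* embryos. Less the genotype means, their score correlated negatively with *Cacna1a* (r = -0.88, rho = -0.81), *Cacna1b* (r = -0.88, rho = -0.89), *Cacna1g* (r = -0.88, rho = -0.93), *Cacna2d2* (r = -0.84, rho = -0.77), *Cacna2d3* (r = -0.76, rho = -0.84), and *Cacna2d1* (r = -0.75, rho = -0.79). For *Cacna1h* and *Cacna1c* r was -0.07 and -0.19, which became -0.40 and -0.32 without the 2 most distant embryos. The score of the 7 radial glia markers, led by *Fabp7*, went against *Cacna1g* (r = -0.91, rho = -0.84), *Cacna1d* (r = -0.89, rho = -0.81), *Cacna2d1* (r = -0.80, rho = -0.80), *Cacna1b* (r = -0.79, rho = -0.76), *Cacna1e* (r = -0.75, rho = -0.73), and *Cacna1a* (r = -0.71, rho = -0.70). The 8 neuron markers, led by *Tubb3*, went with *Cacna2d3* (r = 0.87, rho = 0.81), *Cacna2d2* (r = 0.77, rho = 0.74), and *Cacna1b* (r = 0.77, rho = 0.81). They went less closely with *Cacna1a* (r = 0.71, rho = 0.63) and *Cacna2d1* (r = 0.61, rho = 0.68). For *Cacna1h* (r = -0.36, rho = -0.15) and *Cacna1c* (r = -0.06, rho = -0.01) the sign of r turned without the 2 most distant embryos, to 0.07 and 0.22. The 7 interneuron markers, led by *Dlx1*, went against *Cacna1g* (r = -0.78, rho = -0.84) and *Cacna1a* (r = -0.70, rho = -0.69). With the midbrain and hindbrain markers the channel genes went both ways. *Cacna2d3* (r = 0.65, rho = 0.52), *Cacna1a* (r = 0.51, rho = 0.44), and *Cacna2d2* (r = 0.43, rho = 0.44) went with them, and *Cacna1c* (r = -0.64, rho = -0.81), *Cacna1h* (r = -0.60, rho = -0.57), and *Cacna1e* (r = -0.49, rho = -0.55) went against them. Without the 2 most distant embryos these r were 0.36, 0.21, 0.21, -0.76, -0.56, and -0.62.

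**Figure D4:**
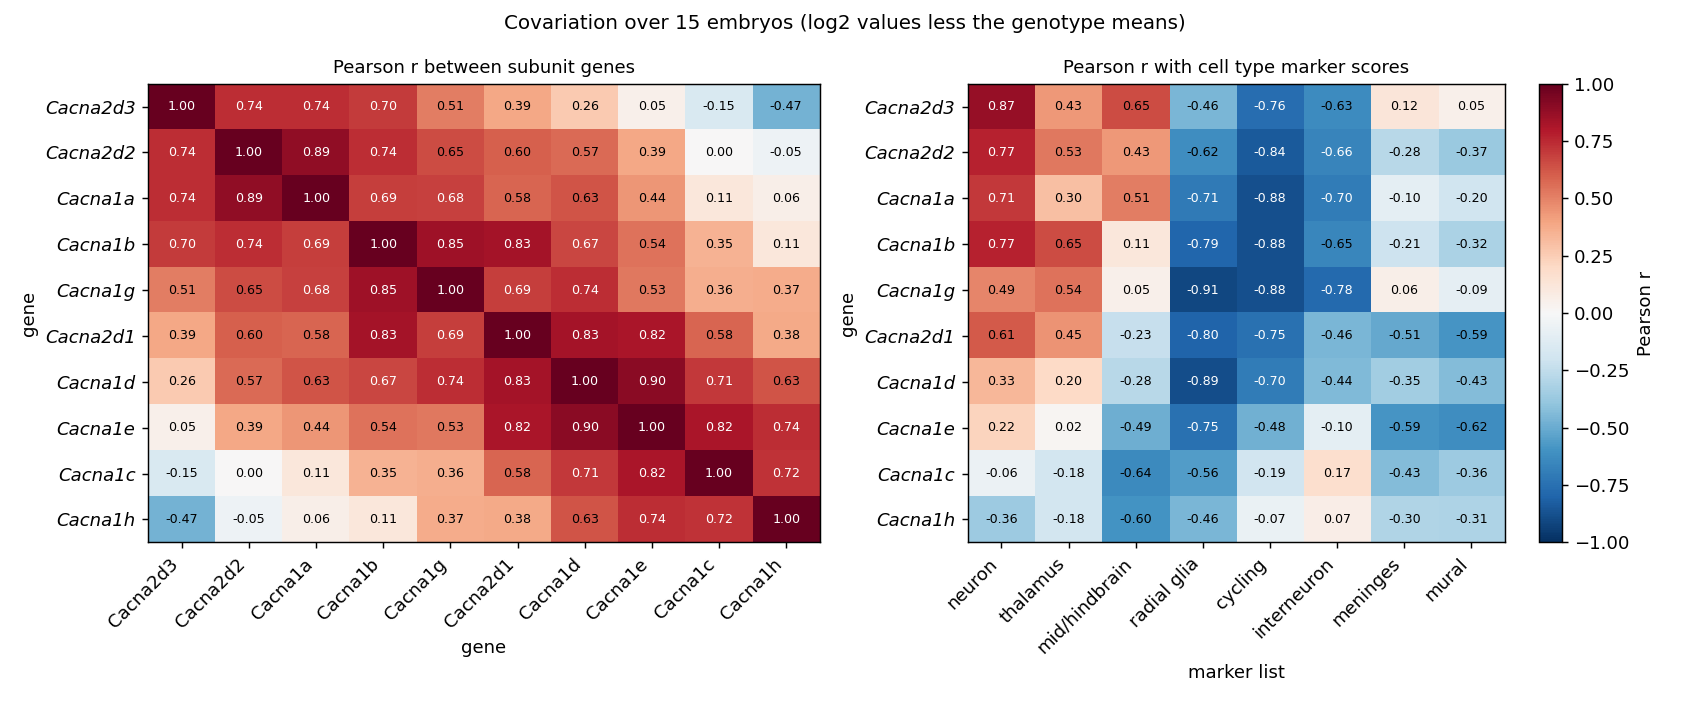
Pearson's r over 15 embryos of log2 values less the genotype means, between the 10 channel genes (left) and between these genes and scores of 8 marker lists (right), with red for positive and blue for negative values. The cell-cycle column is blue for genes such as *Cacna1g* (-0.88) and *Cacna1d* (-0.70), paler for *Cacna1e* (-0.48) and *Cacna1c* (-0.19), and nearly white for *Cacna1h* (-0.07).

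Several marker lists also leaned one way between genotypes, although no single marker was called. The markers of a list were measured in the same embryos, so the counts below are not separate observations and were not tested. In the homozygotes 7 of 8 neuron markers were higher than in WT and 8 of 8 were higher than in the heterozygotes, with mean sums of 187898, 185782, and 193774 in WT, heterozygous, and homozygous embryos and means of *Tubb3* of 63984, 65089, and 66557. Of the 10 cell-cycle genes, 8 were lower in homozygotes than in WT and 10 were lower than in the heterozygotes, with mean sums of 17908, 19014, and 16652. Lists of vessels and coverings leaned the same way as the cell-cycle genes. All 6 endothelial markers, led by *Kdr*, and all 7 mural markers, led by *Rgs5*, were lower in homozygotes than in WT and than in the heterozygotes, with mean sums of 7100, 7327, and 6591 for the endothelial and of 5342, 5303, and 5008 for the mural list. The sums of single embryos overlapped. Endothelial sums ran from 4668 to 8411 in WT and from 4667 to 9345 in homozygotes. Mural sums ran from 4103 to 5888 in WT and from 3994 to 6288 in homozygotes. In heterozygotes relative to WT, 1 of 8 neuron markers and 10 of 10 cell-cycle genes were higher. In the same comparison 5 of 6 endothelial, 4 of 7 mural, and 5 of 7 radial glia markers were higher. Of the 8 meningeal markers, 6 were lower in homozygotes than in WT and 8 were lower than in the heterozygotes, while 7 were higher in heterozygotes than in WT. Their sums had medians of 8855, 15144, and 7009 and reached 32113, 17449, and 20473 in the highest embryo of WT, heterozygotes, and homozygotes, so that a single embryo carried much of the mean in WT and in homozygotes. All 14 tested midbrain and hindbrain markers were lower than in WT in homozygotes and in heterozygotes alike, and 9 of 14 were higher in homozygotes than in heterozygotes. Their sums had medians of 2159, 1125, and 1320, with a highest embryo of 5165 in WT, 4549 in heterozygotes, and 2280 in homozygotes. Of the 7 radial glia markers, 5 were lower in homozygotes than in WT, with mean sums of 34303, 34110, and 33112. Of the 7 interneuron markers, 6 were higher in homozygotes than in WT and 2 were higher than in the heterozygotes, with mean sums of 19930, 21205, and 20919. Of the 5 thalamic markers, led by *Tcf7l2*, 3 were higher in homozygotes than in WT, with mean sums of 12466, 11658, and 12919. The 5 choroid plexus markers, led by *Ttr*, of which 2 were higher in homozygotes than in WT, had sums with medians of 11443, 17957, and 14078 and a range from 926.8 to 24567 over all embryos. The part that any of these cell types had in the value of *Cacna2d1* was not tested. Scores of some lists were used as covariates, and those of interneurons, thalamus, and choroid plexus were not. With the cell-cycle score as a covariate, the log2 fold change of *Cacna2d1* in homozygotes relative to WT was 0.28 (adjusted p = 0.0191, limma). With the score of neurons it was 0.28 (adjusted p = 0.0767), with that of the meninges 0.28 (adjusted p = 0.154), and with that of midbrain and hindbrain 0.29 (adjusted p = 0.233), all from limma. The score of radial glia gave 0.27 (adjusted p = 0.0190), that of mural cells 0.27 (adjusted p = 0.131), and that of endothelial cells 0.28 (adjusted p = 0.151), also from limma. Muscle also expresses *Cacna2d1*, and its 6 markers summed to between 106.4 and 273.7 normalized read counts in every embryo, with *Ckm* and *Myog* at 0 in some.

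**Figure D5:**
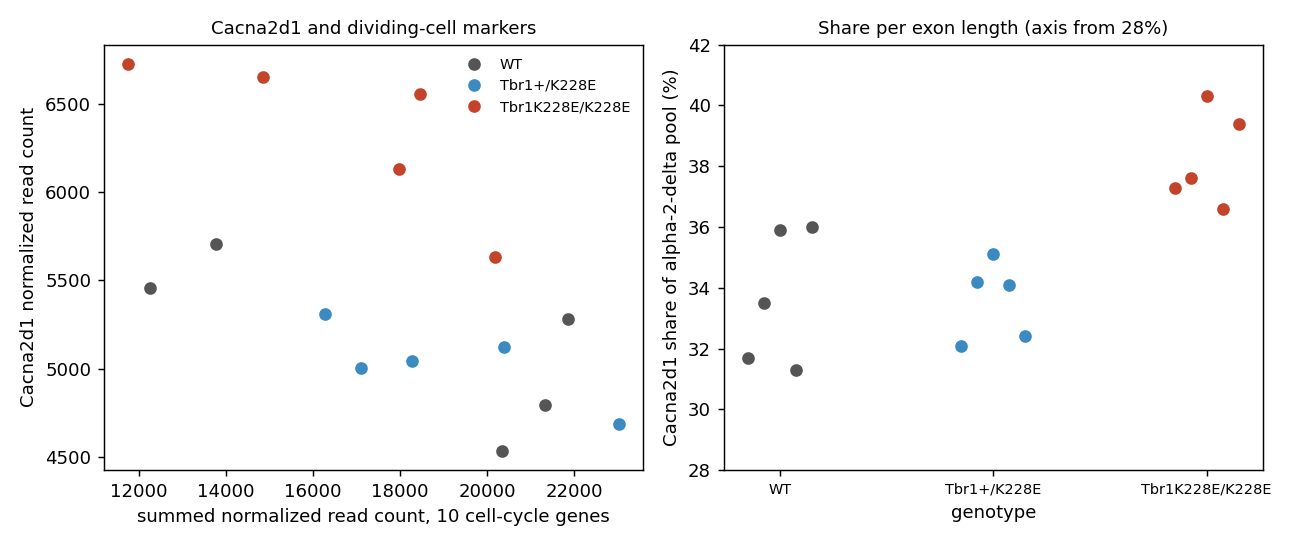
Left, normalized read count of *Cacna2d1* in each embryo (vertical axis, not from 0) against the summed normalized read count of 10 cell-cycle genes (horizontal axis, not from 0). Right, share of *Cacna2d1* in the alpha-2-delta level per kb (vertical axis, from 28%), where the homozygous embryos (36.6 to 40.3%) lie above the WT embryos (31.3 to 36.0%).

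The genes whose embryo-to-embryo variation was most like that of *Cacna2d1*, among the 13542 genes whose mean reached 50, were *Ank3* (r = 0.946), *Klhdc10* (r = 0.942), *Herc2* (r = 0.933), *Arl4c* (r = 0.931), and *Ralgapa1* (r = 0.926), over 15 embryos less the genotype means. *Ank3* encodes ankyrin-G, which anchors sodium channels at the axon initial segment. The log2 fold changes of these 5 genes in homozygotes relative to WT lay between -0.02 and 0.06, and none passed the threshold. When the genotype means were left in, 5 different genes came first, namely *Hrk* (r = 0.894), *Nrgn* (r = 0.882), *Oxr1* (r = 0.875), *Baz2b* (r = 0.873), and *Syt4* (r = 0.865), and 0 genes were shared between the lists. These 5 were chosen with the genotype difference in their values, so their fold changes are no independent evidence. *Nrgn*, which encodes the calmodulin-binding neurogranin, is among the 21 genes of the whole table past the adjusted threshold in homozygotes against WT (0.127%).

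A further 42 genes of the calcium channel complex and its partners were listed, of which 41 were tested, and 0 passed the adjusted threshold in any comparison, where the share over all tested genes was 0.127% in homozygotes against WT, 0.0% in heterozygotes against WT, and 0.0788% in homozygotes against heterozygotes. All 4 beta subunits, which bind the pore from inside the cell, were measured. *Cacnb3* was the most abundant by normalized read count, with a WT mean of 7556 ± 514 and a homozygous mean of 7716 ± 373 (SD over 5 embryos each), a log2 fold change of 0.03 (95% interval -0.08 to 0.14). The log2 fold changes of *Cacnb1*, *Cacnb2*, and *Cacnb4* in homozygotes were 0.02, -0.15, and 0.10. The remaining alpha-1 and alpha-2-delta relatives were of lower abundance in part, such as *Cacna2d4* with means of 12.5 in WT and 26.8 in homozygotes (log2 fold change 0.95, 95% interval -0.08 to 1.97, adjusted p = 1.00, limma) and *Cacna1s*, the skeletal muscle pore, with means of 25.1 in WT, 14.3 in heterozygotes, and 18.0 in homozygotes (adjusted p = 0.999 for heterozygotes and 1.00 for homozygotes against WT, limma). In heterozygotes against WT the log2 fold change of *Cacna1s* was -0.83 (95% interval -1.53 to -0.12, unadjusted p = 0.0245, limma). It was the 1 gene of the 41 with an unadjusted p under 0.05 there, against 1.79% of all genes. The 7 tested gamma and TARP genes, most of which encode AMPA receptor partners, had log2 fold changes between -0.15 and 0.04 in homozygotes relative to WT, where *Cacng5* had the smallest p of the list with means of 403 in WT and 361 in homozygotes (unadjusted p = 0.179, limma).

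Among 12 inhibitors and regulators, *Stac2*, whose product slows the inactivation of L-type channels, had normalized read counts of 404, 455, 456, 512, and 437 in WT embryos. The heterozygous embryos had 516, 463, 395, 486, and 401, and the homozygous embryos had 376, 364, 318, 366, and 317. Every homozygous embryo lay below every embryo of the other genotypes, where 0.594% of all tested genes did not overlap between homozygotes and WT and 0.878% between homozygotes and heterozygotes, in either direction. The log2 fold change in homozygotes was -0.38 (95% interval -0.57 to -0.19, adjusted p = 0.301, limma) relative to WT and -0.37 (95% interval -0.56 to -0.18, adjusted p = 0.348, limma) relative to the heterozygotes, and with the empirical null 1 of the 41 genes, *Stac2*, was called in homozygotes against WT, against 0.254% of all tested genes, and 0 of the 41 in homozygotes against heterozygotes (adjusted p = 0.166 for *Stac2*), against 0.109% of all. It had the smallest p of its list. The 5 listed ligands of alpha-2-delta-1, the thrombospondins and *Comp*, had a median log2 fold change of -0.19 in homozygotes relative to WT, with 1 positive and 4 negative values and 0 with an unadjusted p under 0.05 (limma). The smallest was that of *Thbs1*, with means of 1046 in WT and 920 in homozygotes (log2 fold change -0.19, 95% interval -0.42 to 0.04). The 8 genes that calcium entry induces, such as *Fos*, *Npas4*, and *Bdnf*, had a median of -0.06 in homozygotes relative to WT, with 2 positive and 6 negative values, and 0 with an unadjusted p under 0.05 (limma). *Atf3*, with the smallest p, had means of 24.5 in WT and 19.1 in homozygotes (log2 fold change -0.47, 95% interval -1.11 to 0.18). Relative to the heterozygotes, whose *Atf3* mean was 30.6, its log2 fold change was -0.77 (95% interval -1.41 to -0.12, unadjusted p = 0.0224, adjusted p = 0.996, limma), and it was the 1 gene of the 8 with an unadjusted p under 0.05 there, against 3.3% of all genes.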

How the data were processed

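RNA was sequenced as 101-base paired-end reads from an unstranded library, so that reads of overlapping antisense genes cannot be told apart. The authors estimated transcript abundance with Salmon 0.11.2 on GRCm38 with correction for GC bias, summarized it per gene with tximport, and scaled the counts by the size factors of DESeq2 1.22.2 in R 3.5.3. The deposited signal is thus a normalized read count per gene and embryo, not a whole read, and no count model was fitted. Ensembl identifiers were looked up in GENCODE M21 (GRCm38), where 19469 of 19475 were found. No sample was left out.

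Genotypes were compared in R 4.3.3 with limma 3.58.1 (eBayes with a trend) on log2(value + 1), with all 15 embryos in one fit, over the 16507 genes whose mean reached 5. Fold changes are on that scale. P-values were adjusted by the Benjamini-Hochberg procedure over all tested genes, with a threshold of 0.05. Single genes were also compared by two-sided exact permutation tests over 252 splits. Embryos are separate animals, but litters are not given in the labels, so p-values measure the spread between these embryos. Levels per kb used the union of exons. Marker scores are means of log2(value + 1) over the genes of a list. Genes were not standardized, so the more variable genes weigh more in a score. Each choice was varied in turn, with a pseudocount of 0.1 and of 10, all genes kept or a minimum mean of 50, upper quartile or quantile rescaling, sex or marker scores as covariates (those of neurons, radial glia, mural, and endothelial cells added after the data were seen), robust eBayes, the compared groups alone, an empirical null fitted up to the 75th percentile in place of fdrtool, a replicate block, the longest transcript, and leaving out each embryo. The channel genes, the other gene lists, and the markers were chosen with earlier results of these data known, and *Cacna2d1* is a gene that the study itself singles out from these embryos. The genes named are *Tbr1*, the 10 members, the beta subunits, the gene with the smallest p of each further list in homozygotes against WT, and the 5 genes most like *Cacna2d1*. *Cacna1s*, *Cacna1i*, and the second set of like genes were named after their values were seen. *Comp*, *Fos*, *Npas4*, *Bdnf*, and the marker genes were named to describe their lists. Promoter sequences are from RefSeq (GRCm38.p6). One marker list beyond the 11 used is not reported here.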

Additional observations from a re-analysis of the deposited data

Results flagged for a closer look

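For 15 genes (*Tbr1*, the 10 channel genes, and the 4 beta subunits) in 3 genotypes, 4 of 45 groups held an embryo whose gap to its nearest neighbour was a large part of the whole range, where chance gives about 1 in 20. *Cacna2d2* had its highest WT value, 5935, in WT replicate 4. Replicate 1 of the *Tbr1K228E/K228E* mice was lowest by such a gap for *Cacna1b* (6633), *Cacna1c* (3543), and *Cacna1h* (6411), and it also had the lowest *Cacna2d1* value of its genotype (5633). Without that embryo the 4 remaining homozygotes had *Cacna2d1* values from 6129 to 6724, all above the highest WT embryo. Of 20 differences between the sexes in the effect of a mutant genotype on the 10 channel genes, 0 passed the adjusted threshold (smallest adjusted p = 0.734, limma) and 1 had an unadjusted p under 0.05.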

How the results depend on the processing

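With each embryo left out in turn, 0 of the 10 genes passed the threshold in any comparison, and the log2 fold change of *Cacna2d1* stayed between 0.26 and 0.34 against WT (adjusted p 0.0678 to 0.527) and between 0.31 and 0.37 against the heterozygotes (adjusted p 0.0509 to 0.370). Over all alternatives its adjusted p ranged from 0.0159 to 0.529 against WT, from 0.0256 to 0.370 against the heterozygotes, and from 0.967 to 1.00 for heterozygotes against WT (limma). The count of genes past the threshold was 1, *Cacna2d1*, against WT with the upper quartile (adjusted p = 0.0483), the empirical null (0.0159), the cell-cycle covariate (0.0191), and the radial glia covariate (0.0190), and against the heterozygotes with the upper quartile (0.0343), quantile normalization (0.0464), the empirical null (0.0380), the cell-cycle covariate (0.0437), and the radial glia covariate (0.0256). The radial glia covariate was chosen after seeing the data. The cause of these changes was not tested. The other 9 genes passed in 0 alternatives, and in each comparison 7 of the 9 changed sign in at least 1 alternative.

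Replicate numbers come from the labels and mark different embryos of the same sex, and whether a number marks a litter or batch is not given. Deviations of same-numbered embryos correlated with a mean r of 0.243 (WT and homozygotes), 0.068 (WT and heterozygotes), and 0.011 (heterozygotes and homozygotes), and 2, 1, and 2 of 5 pairs were best matched to their own number. With the replicate block the adjusted p of *Cacna2d1* was 0.106 against WT and 0.0768 against the heterozygotes, and the block with the empirical null, added after the data were seen, gave 1 call, *Cacna2d1*, against WT (adjusted p = 0.0256) and 0 of the 10 genes against the heterozygotes (0.0872 for *Cacna2d1*). The block moved the count of all genes called from 21 to 16 against WT, from 13 to 2 against the heterozygotes, and from 12 to 7 for the trend. The empirical null gave 42 calls against WT and 26 for the trend, the fit of the compared groups alone gave 12 calls against WT, and the midbrain and hindbrain covariate gave 22 calls against the heterozygotes. The cell-cycle covariate gave 18 calls for the trend, and a minimum mean of 50 gave 8. Leaving out each embryo gave 12 to 22 calls against WT, 6 to 17 against the heterozygotes, and 4 to 12 for the trend.

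With the longest transcript as length, the WT levels per kb were 918 for *Cacna1h*, 887 for *Cacna2d2*, 754 for *Cacna1g*, 741 for *Cacna1b*, 693 for *Cacna2d1*, 664 for *Cacna1e*, 422 for *Cacna1a*, 403 for *Cacna2d3*, 326 for *Cacna1c*, and 300 for *Cacna1d*, so that *Cacna1b* came 4th and not 2nd and the middle pair overlapped *Cacna1g*. The WT shares became 44.7% for *Cacna2d2*, 20.2% for *Cacna2d3*, 15.2% for *Cacna1c* and *Cacna1d*, and 40.5% for *Cacna1g* and *Cacna1h*, the last pairs as shares of the 7 alpha-1 genes described. The genes most like *Cacna2d1* shared 0 of 5 with the list made without subtracting genotype means. The number of embryos limits the precision to that of the intervals given in the report, and the read depth behind each value is unknown.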
